A study of Mus musculus with 126 samples.

Results

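The 42 genes described here encode 19 soluble proteins of the lysosomal lumen, 8 lysosomal membrane proteins and 15 widely expressed subunits of the vacuolar proton pump, the V-ATPase. They were chosen by symbol from a deposited table of 48490 mouse gene identifiers, and all 42 were found. The table covers 126 single cells from the endolymphatic sac of the inner ear, taken from embryos at stage E14.5. Of these, 93 cells came from embryos heterozygous for the Sox9 Y440X allele (Sox9Y440X/+, called mutant below) and 33 from wild-type embryos. The labels name no Cre driver, treatment or strain, and SOX9 and SOX10, the related transcription factors in the series title, set the study's question of how they control inner ear fluid.

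Lysosomes break down proteins, glycans and lipids with enzymes that work in an acidic lumen. The V-ATPase provides that acidity: its cytosolic V1 sector hydrolyses ATP and its membrane-bound V0 sector carries protons across the membrane. In the endolymphatic sac a minority of epithelial cells, the mitochondria-rich cells, depend on the transcription factor FOXI1 and also place V-ATPase at their surface, where it acidifies the endolymph. Those cells use additional, tissue-restricted subunits beside the widely expressed ones counted here.

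The cells were grouped by markers that are not among the 42 genes. Foxi1-high cells had Foxi1 at 10 FPKM or more, where FPKM is the fragment count scaled to transcript length and library size. There were 11 mutant and 5 wild-type Foxi1-high cells. Their lowest Foxi1 values were 36.4 FPKM in mutant and 28.2 FPKM in wild-type cells, and the highest value in a sac epithelial cell was 0.989 FPKM. A further 9 mutant cells and 1 wild-type cell held more mesenchymal than epithelial markers. The remaining 73 mutant and 27 wild-type cells are called sac epithelial, a group set by its rule that still holds single cells with markers of other lineages. Among these are a mutant cell with 4 of 5 endothelial markers at 10 FPKM, a mutant Aldh1a3-dominant cell with 5 of 6 red blood cell markers and a wild-type Aldh1a3-dominant cell with 7 of 12 mesenchymal markers. Among them, cells with Aldh1a1 at 10 FPKM or more and a 4-fold excess over Aldh1a3, both genes of retinoic acid synthesis, are called Aldh1a1-dominant (31 mutant and 8 wild-type cells), and those with the opposite excess Aldh1a3-dominant (35 mutant and 15 wild-type cells). Sac epithelial cells had 0 to 10 of 10 epithelial markers at 10 FPKM in mutant cells (median 9) and 7 to 10 in wild-type cells (median 8).

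No animal is named in the labels. Each genotype is therefore treated as 1 sample, SDs are over cells, and no test between groups was made. Cell titles begin with P9 in all 93 mutant cells and 1 wild-type cell and with P10 in the other 32 wild-type cells, so what that prefix stands for and the genotype cannot be told apart. Read depth is unknown. The number of genes listed above 0 stood in for it, with a median of 4340 (2035 to 9358) in mutant and 5019 (2189 to 6493) in wild-type sac epithelial cells. The summed FPKM of a cell ran up to 3767700 in mutant and 16361100 in wild-type cells against medians of 452395 and 495637, and rescaling each cell to the same sum is among the alternatives. Sox9 was at 1 FPKM or more in 65 of 73 mutant and 24 of 27 wild-type sac epithelial cells. Xist without a Y-linked transcript was detected in 81 of 93 mutant and 0 of 33 wild-type cells, and a Y-linked transcript without Xist in 4 mutant and 32 wild-type cells, so the sex of the embryos and the genotype cannot be told apart. The 4 mutant-labelled cells, 2 of them Foxi1-high and 2 Aldh1a3-dominant, go against the rest of their group, and their labels are in doubt. Of the 42 genes, Gla, Lamp2, Atp6ap1 and Atp6ap2 lie on the X chromosome.

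Macrophages and melanocytes are also rich in lysosomal transcripts, so their markers were examined. Of 10 macrophage markers, 7 (Ptprc, Lyz2, C1qa, C1qb, C1qc, Tyrobp and Fcer1g) were below 1 FPKM in all sac epithelial cells of both genotypes, and no such cell had more than 1 macrophage marker at 10 FPKM. The summed macrophage markers reached at most 72.98 FPKM in a mutant and 99.6 FPKM in a wild-type sac epithelial cell, with a median of 0 in both. Of 8 melanocyte markers, Tyr, Tyrp1, Mlana and Ednrb were below 1 FPKM in all sac epithelial cells. The summed level of the 8 had a median of 0 (0 to 139.6) FPKM in mutant and 40.9 (0 to 275) FPKM in wild-type sac epithelial cells. In Aldh1a3-dominant cells it was 0 (0 to 119.7) FPKM in the mutant and 51.2 (0 to 275) FPKM in the wild type. The summed level of 6 markers of glia and neural crest likewise had medians of 0 FPKM in mutant and 29.7 FPKM in wild-type Aldh1a3-dominant cells. The part of these markers in the genotype differences below was not tested.

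The luminal proteins were broadly detected. In sac epithelial cells, 17 of the 19 genes, all but Gla and Manba, were detected (1 FPKM or more) in over 50% of mutant cells and likewise of wild-type cells. Ctsa, which encodes the protective protein that stabilises lysosomal beta-galactosidase, had 0, 221.7 and 888 FPKM as lowest, median and highest value in mutant cells, against 0, 368 and 733 FPKM in wild-type cells. Ctsd, the aspartic protease cathepsin D, had 0, 192 and 948 FPKM in mutant cells, against 71.5, 293 and 921 FPKM in wild-type cells. All 27 wild-type cells held Ctsd, while 6 of 73 mutant cells listed it at 0. At the other end, Gla, alpha-galactosidase A, was detected in 12 of 73 mutant and 7 of 27 wild-type cells, and had a median of 0 in both.

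The medians of the membrane proteins spanned the widest range. Cd63, a tetraspanin of late endosomes and lysosomes, was the most abundant of the 42 genes, with 0, 797 and 3130.4 FPKM in mutant sac epithelial cells, against 339 as the lowest, 1347 as the median and 3855 FPKM as the highest in wild-type cells. Lamp1 and Lamp2, the main glycoproteins of the lysosomal membrane, had medians of 181 and 113 FPKM in mutant cells, against 250.2 and 225 FPKM in wild-type cells. Npc1, the cholesterol exporter, was detected in 14 of 73 mutant and 3 of 27 wild-type cells. Scarb2, the membrane receptor that brings glucocerebrosidase to the lysosome, was detected in 21 mutant and 5 wild-type cells.

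Among the V-ATPase genes, Atp6v1f, which encodes a subunit of the central rotor, had the highest median in sac epithelial cells of either genotype, 168 FPKM in mutant cells and 247 FPKM in wild-type cells. Atp6v0c, the proteolipid that forms most of the membrane ring, followed with 148 FPKM in mutant and 215 FPKM in wild-type cells. Atp6v0a1, a form of the large V0 subunit, was detected in 11 of 73 mutant and 5 of 27 wild-type cells. Together with Gla, Npc1 and Scarb2 it fell short of the 25% of sac epithelial cells, averaged over the genotypes, in which a gene had to be detected to be compared. The other 38 genes, 18 luminal, 6 membrane and 14 V-ATPase, are among the 5998 genes compared below.

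**Figure D1:**
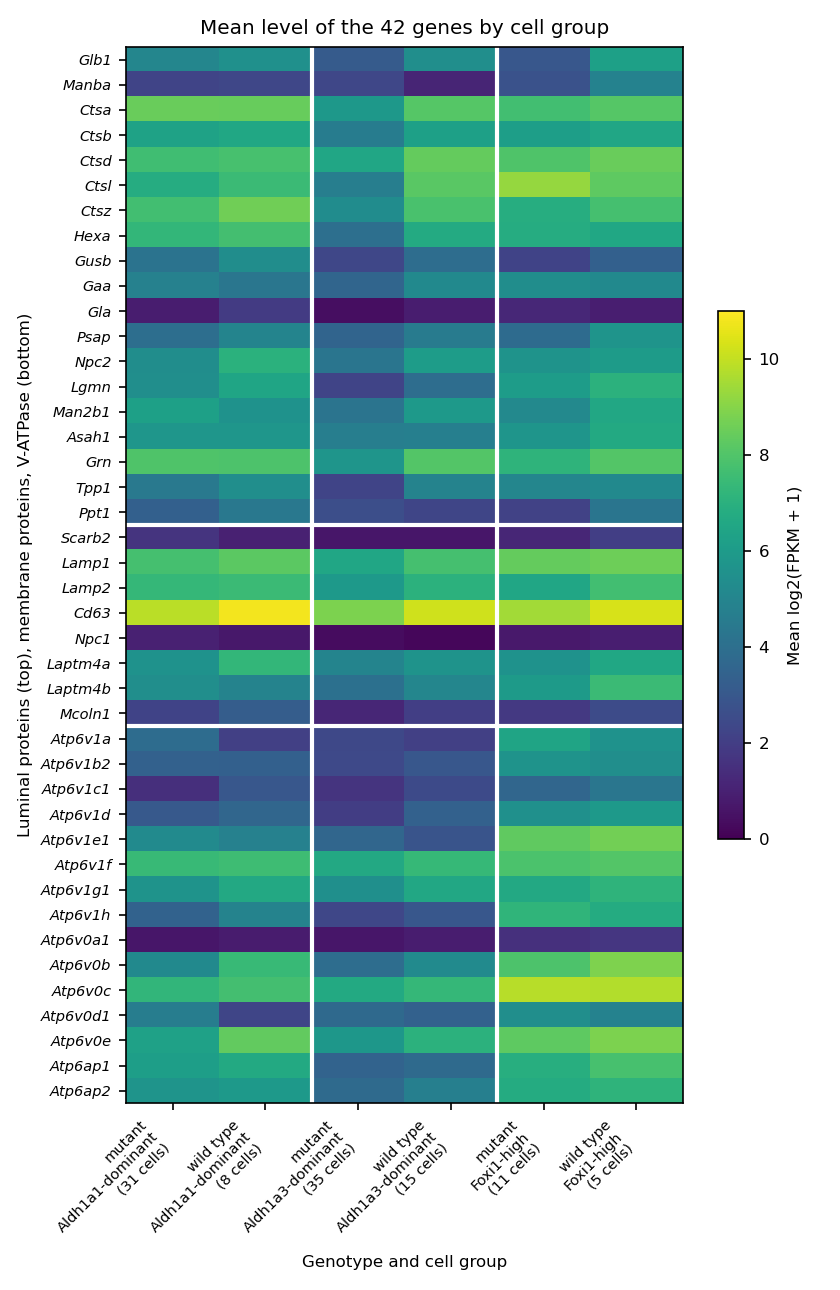
Mean log2(FPKM + 1) of the 42 genes (rows: luminal proteins, membrane proteins and V-ATPase from top to bottom) in 6 groups of cells (columns, mutant left of wild type). Cd63 is the brightest row in the Aldh1a1- and Aldh1a3-dominant columns, and Atp6v0c is the brightest V-ATPase row in the Foxi1-high columns.

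The promoters of these genes were examined because lysosomal genes are known to share the CLEAR element, an E-box variant bound by TFEB and its relatives TFE3 and MITF. Of the 42 genes, 34 had a RefSeq promoter window (GRCm38.p6, 250 bases before to 50 after the annotated start). The letters TCACGTG, read on either strand, occurred in 12 of these 34 genes (35.29%), against 1160 of 27025 genes with a window (4.292%). The longer palindrome TCACGTGA, which contains the first motif on both strands, occurred in 7 of the 34 genes (20.59%), against 1.125% of all genes. The shares were similar in the 3 classes, with 6 of 17 luminal, 2 of 6 membrane and 4 of 11 V-ATPase genes. Lamp1 held the most matches, 4 within the 90 bases before its start, and that stretch (chr8:13159071-13159160, plus strand) is shown first. A match from each of 8 other genes follows, in the gene's own 5′ to 3′ direction, with the motif in capitals. Glb1 lies at chr9:114401019-114401046 (plus), Ctsa at chr2:164833750-164833777 (plus), Ctsd at chr7:142387909-142387936 (minus), Lgmn at chr12:102439125-102439152 (minus), Gaa at chr11:119267812-119267839 (plus), Mcoln1 at chr8:3500463-3500490 (plus), Atp6v1a at chr16:44139374-44139401 (minus) and Atp6v0b at chr4:117887349-117887376 (minus).
Lamp1: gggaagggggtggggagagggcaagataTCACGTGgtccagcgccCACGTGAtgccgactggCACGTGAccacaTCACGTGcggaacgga
Glb1: tgcttctgagTCACGTGgcctacagagg
Ctsa: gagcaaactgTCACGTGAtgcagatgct
Ctsd: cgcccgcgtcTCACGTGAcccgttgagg
Lgmn: ggaatgtctgTCACGTGgtccattttat
Gaa: ttctgtgcgaTCACGTGtttgactctga
Mcoln1: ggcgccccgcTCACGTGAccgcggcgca
Atp6v1a: tttttttaaaTCACGTGAtaggcttaac
Atp6v0b: tgcgcgggggTCACGTGgggtcggcgca
The remaining genes with a match were Gla, Atp6v0d1 and Atp6v0e. No TCACGTG was found in the windows of Ctsl, Hexa or Tpp1, whose genotype differences are described below, although Ctsl holds the shorter E-box CACGTG. In the Aldh1a3-dominant cells described below, the 11 compared genes with the motif had a median genotype difference of -0.90 and the 20 with a window but no motif -0.84. In Aldh1a1-dominant cells the medians were 0.11 with and -0.03 without the motif, and the difference between these genotype differences, Aldh1a3 minus Aldh1a1, had medians of -1.36 with and -0.64 without it. Between Foxi1-high and other sac epithelial cells the medians were 0.88 with and 0.44 without the motif in the mutant, and 0.63 with and 0.33 without it in the wild type. None of these differences by motif was tested.

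Levels were compared between groups as means of log2(FPKM + 1). Each difference is given relative to the median difference of genes of similar mean level, taken in 20 bins, since scarce and abundant genes shift differently when fewer genes are listed. A gene is called past the fold at a relative difference of at least 1 on the log2 scale, in either direction. Over all sac epithelial cells the luminal proteins were lower in mutant than in wild-type cells, with a median relative difference of -0.59 against 0 for all compared genes, and 15 of 18 lay below 0. Of the 18, 3 were past the fold downward and 0 upward. Over all compared genes, 6.3% were past the fold downward and 5.64% upward.

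The 3 luminal genes were Ctsl, Npc2 and Hexa. Ctsl, the cysteine protease cathepsin L, had 0, 94.4 and 395 FPKM as lowest, median and highest in mutant cells, against 0, 241 and 739.6 FPKM in wild-type cells, and a relative difference of -1.43. Npc2, which hands cholesterol to NPC1 inside the lysosome, had 0, 33.3 and 132 FPKM in mutant cells, against 22.3, 77.1 and 227 FPKM in wild-type cells, and a relative difference of -1.05. The groups overlapped for both genes: in 23.9% of mutant and wild-type cell pairs the mutant cell had more Ctsl, and in 20.3% it had more Npc2. Hexa, the alpha subunit of beta-hexosaminidase, had a relative difference of -1.04. Highest among the luminal genes was Manba, lysosomal beta-mannosidase, at 0.68, which is not past the fold.

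The 6 compared membrane proteins had a median relative difference of -0.35 and none was past the fold. The 14 V-ATPase genes had a median of -0.12 and went in both directions. Atp6v1e1, a subunit of the peripheral stalk, had 0, 57.6 and 348 FPKM in mutant cells, against 0, 6.08 and 237 FPKM in wild-type cells, and a relative difference of 1.53. Atp6v0d1, the subunit that couples the rotor to the membrane ring, was also higher in mutant cells, at 1.32, with a median of 33.5 FPKM against 16.5 FPKM in wild-type cells. Atp6v0b, a ring proteolipid, was lower in mutant cells, at -1.06, with medians of 79.9 FPKM in mutant and 129.8 FPKM in wild-type cells. Over all 38 genes, 2 (5.26%) were past the fold upward and 4 (10.5%) downward, against 5.64% and 6.3% of all compared genes.

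The cells were then separated by Aldh1a1 or Aldh1a3 dominance. In Aldh1a3-dominant cells the luminal proteins had a median relative difference of -1.20, mutant minus wild type, and 13 of 18 were past the fold downward, against 11.8% of all compared genes. In addition, 1 was past the fold upward, against 9.64% of all compared genes. The 13 genes, in order from the lowest, were Ctsl, Hexa, Tpp1, Ctsz, Grn, Ctsa, Glb1, Ctsd, Npc2, Lgmn, Gaa, Man2b1 and Ctsb. They include the proteases Ctsa, Ctsb, Ctsd, Ctsl, Ctsz, Lgmn and Tpp1, the glycosidases Hexa, Glb1, Gaa and Man2b1, progranulin (Grn) and the cholesterol carrier Npc2. Without the 2 mutant cells that carried a Y-linked transcript the median was -1.28 and 13 genes were past the fold downward. Without the cell with red blood cell markers and the one with mesenchymal markers (34 mutant and 14 wild-type cells left) it was -1.40, again with 13 genes.

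Ctsl (ENSMUSG00000021477.8, mm10 chromosome 13, 64363214 to 64370306, minus strand) had 0, 68.6 and 395 FPKM in the 35 mutant cells, against 77.2, 268 and 720.1 FPKM in the 15 wild-type cells. Its mean log2(FPKM + 1) was 4.68 ± 3.34 (SD, n = 35 cells) and 8.17 ± 0.91 (SD, n = 15 cells), a relative difference of -2.93. All 15 wild-type cells held Ctsl, while 11 mutant cells listed it at 0 and 24 of 35 were at 1 FPKM or more (68.6%, exact 95% interval 50.7 to 83.1%). In 12% of cell pairs the mutant cell was higher.

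Hexa (ENSMUSG00000025232.7, chromosome 9, 59539667 to 59565105, plus strand) had 0, 24.4 and 378 FPKM in mutant Aldh1a3-dominant cells, against 0, 160.3 and 746 FPKM in wild-type cells. It was detected in 21 of 35 mutant and 14 of 15 wild-type cells and had a relative difference of -2.14. Tpp1, whose human counterpart is deficient in a form of neuronal ceroid lipofuscinosis, had 0, 0.0578 and 244 FPKM in mutant cells, against 0, 74.3 and 349 FPKM in wild-type cells. Its relative difference was -2.13, and more than 50% of mutant cells had Tpp1 below 1 FPKM, with 15 of 35 detected, against 12 of 15 wild-type cells. For all of Ctsl, Hexa and Tpp1 the highest mutant cells lay within the wild-type range, while a larger share of mutant than wild-type cells was listed at 0.

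Both the share of cells with a transcript and the level in those cells were examined. Across the 18 luminal genes the median share of cells at 1 FPKM or more was 68.6% in mutant and 90% in wild-type Aldh1a3-dominant cells, with 16 of 18 detected in a smaller share of mutant cells. Over all compared genes the median share was 40% in mutant and 53.3% in wild-type cells. Among the cells that held a gene, the median difference in mean log2 level over the 18 genes was -0.49, and 14 of 18 were lower in mutant cells, against 0.08 for the median of all compared genes. When the mean FPKM of each group was taken before the logarithm, which gives the zeros less weight, 3 of the 18 luminal genes were past the fold downward, against 10.6% of all compared genes, and their median was -0.79. The number of listed genes had medians of 4268 in mutant and 4898 in wild-type Aldh1a3-dominant cells. In cells with 3000 to 5000 listed genes (26 mutant and 8 wild-type), the luminal median was -1.22 and 11 of 18 were past the fold downward. The share of all compared genes downward in those cells was 16%.

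**Figure D2:**
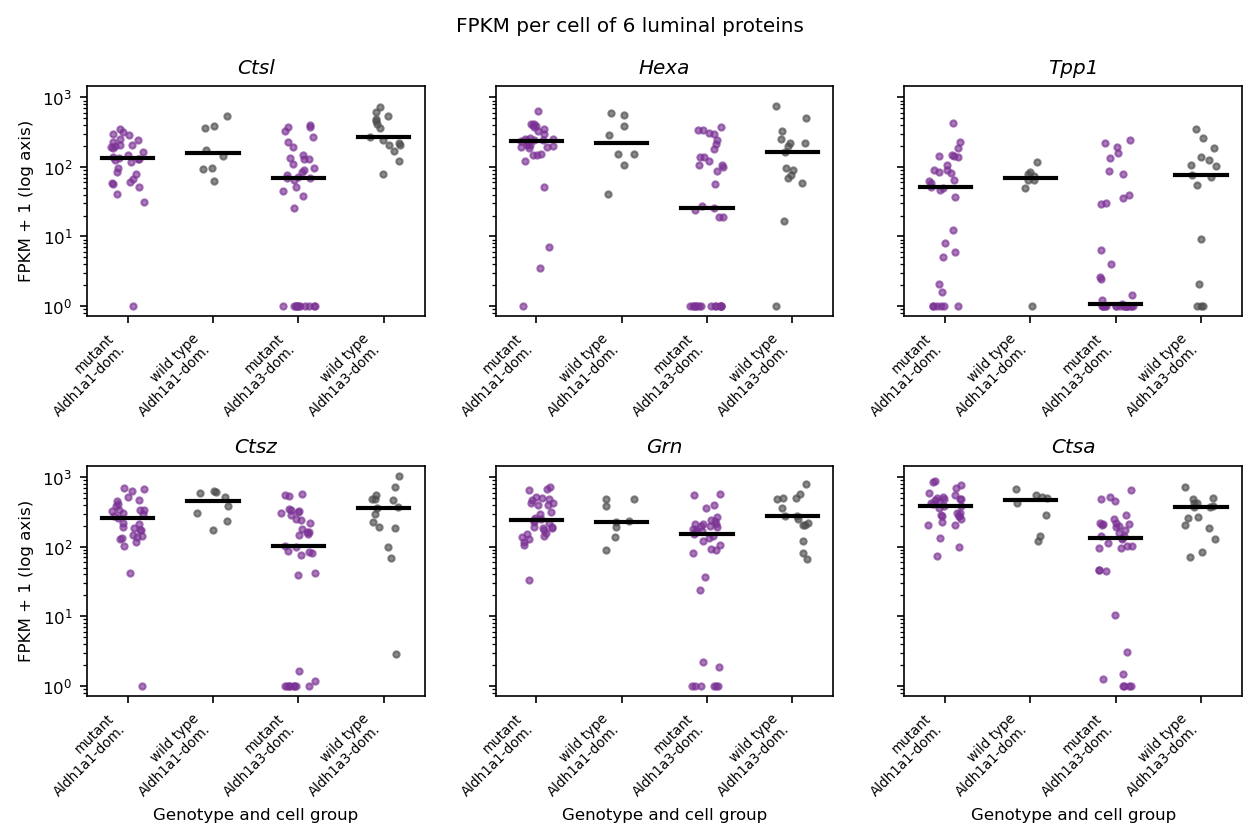
FPKM + 1 per cell on a log axis for 6 luminal proteins in Aldh1a1- and Aldh1a3-dominant cells, mutant left of wild type, with bars at the median. The mutant Aldh1a3-dominant cells include a tier at 0 FPKM, 11 of 35 cells for Ctsl, that wild-type cells of the same group lack for Ctsl and hold 1 of 15 times for Hexa.

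The other classes had medians nearer to 0 in Aldh1a3-dominant cells. The membrane proteins had a median of -0.65 and all 6 lay below 0, but only Cd63 was past the fold, at -1.01, with 0, 608 and 1659 FPKM in mutant cells, against 339, 1255 and 2450.1 FPKM in wild-type cells. The V-ATPase genes had a median of -0.26, with 0 past the fold downward and 2 upward, Atp6v1e1 at 1.41 and Atp6v0d1 at 1.002. The shares of all compared genes were 11.8% downward and 9.64% upward. Manba was the luminal gene past the fold upward, at 1.49, detected in 16 of 35 mutant and 3 of 15 wild-type cells.

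In Aldh1a1-dominant cells the luminal proteins had a median relative genotype difference of 0.08, with 1 gene past the fold in each direction, against 14.9% of all compared genes upward and 15.2% downward. Ctsl there had 0, 131 and 355 FPKM in mutant cells, against 61.2, 158 and 543 FPKM in wild-type cells. Its relative difference was -0.06. The gene past the fold upward was Man2b1, lysosomal alpha-mannosidase, at 1.14, and the gene downward was Npc2, at -1.02. Npc2 had 2.28, 54.4 and 132 FPKM in mutant cells, against 64.2, 132 and 227 FPKM in wild-type cells, and in 7.66% of cell pairs the mutant cell was higher. Membrane proteins had a median of -0.11, with Laptm4b past the fold upward and Laptm4a downward, both members of a family of small lysosomal transmembrane proteins.

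Of the V-ATPase genes in Aldh1a1-dominant cells, 2 of 14 were past the fold upward, near the 14.9% of all compared genes, and 4 downward, against 15.2%, around a median of 0.06. Atp6v0d1 had 0, 33.6 and 213 FPKM in mutant cells, against 0, 8.25 and 35.1 FPKM in wild-type cells, and a relative difference of 2.91. Atp6v1a, the catalytic A subunit, had 0, 30.1 and 141 FPKM in mutant cells, against 0, 3.25 and 127.7 FPKM in wild-type cells, a difference of 2.03. Downward were Atp6v0b at -1.71, Atp6v0e at -1.44, Atp6v1c1 at -1.31 and Atp6v1h. Atp6v0b had 0, 100.2 and 350.3 FPKM in mutant cells, against 31.9, 219 and 347 FPKM in wild-type cells, so the ranges overlapped. Subunits of the same sector lay on both sides, and the wild-type group holds 8 cells.

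**Figure D3:**
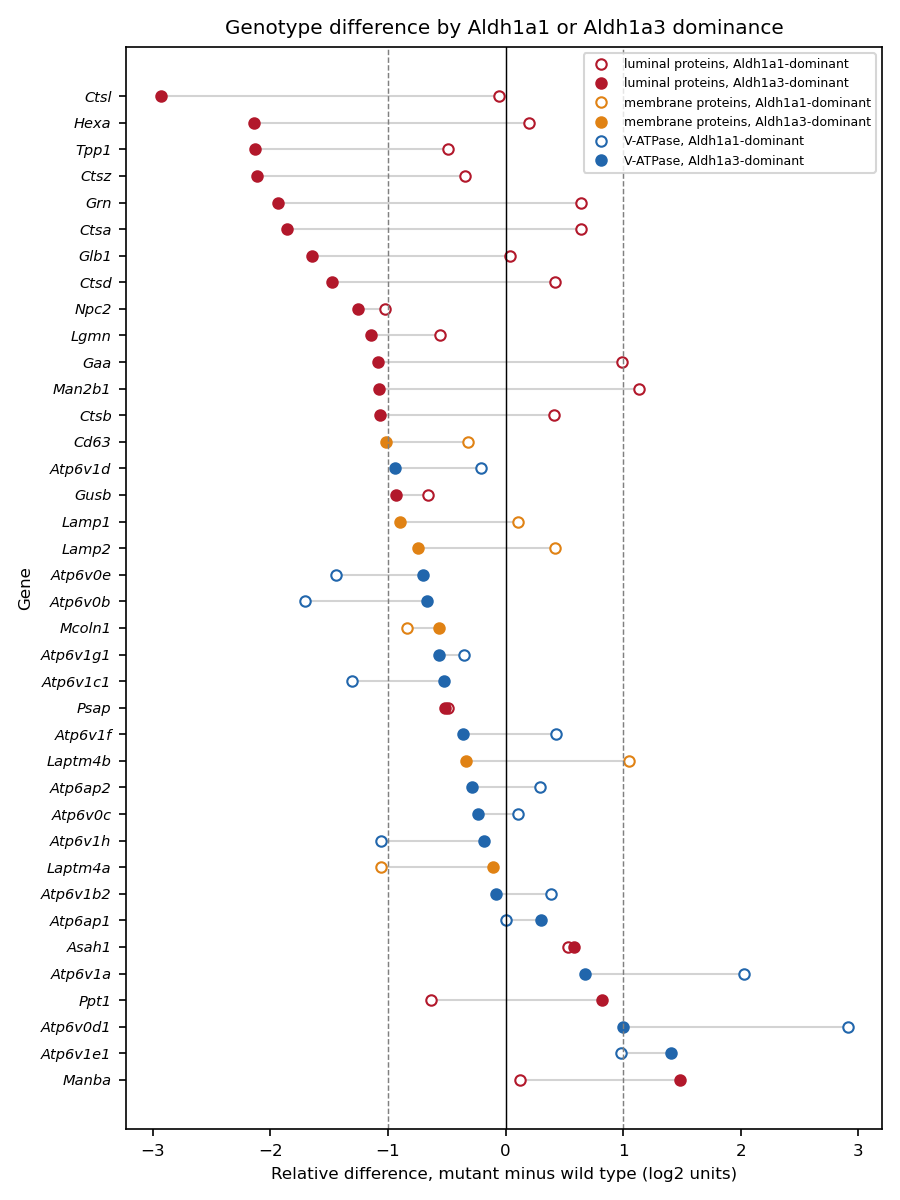
Relative genotype difference (mutant minus wild type, log2 units) of the 38 compared genes, filled circles in Aldh1a3-dominant and open circles in Aldh1a1-dominant cells, coloured by class. Dashed lines mark a relative difference of 1 in either direction. Filled red circles, the luminal proteins, lie furthest left, down to -2.93 for Ctsl, while their open circles lie between -1.02 and 1.14.

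Set side by side, the genotype difference of the luminal genes in Aldh1a3-dominant cells minus that in Aldh1a1-dominant cells had a median of -1.66, and 11 of 18 genes were at -1 or below. Over all compared genes the median was 0.02 and 19.6% were at -1 or below. For the V-ATPase the median was -0.28, with 2 of 14 at -1 or below. This difference between the groups was not tested.

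Compared within a genotype, Aldh1a1-dominant cells carried more lysosomal transcripts than Aldh1a3-dominant cells in the mutant. These cells are also those of the genotype comparisons above. In mutant cells the luminal proteins had a median relative difference of 1.54, Aldh1a1- minus Aldh1a3-dominant, and 12 of 18 were past the fold upward, against 10.8% of all compared genes, with 0 downward, against 8.39%. Hexa had 0, 234 and 639.99 FPKM in Aldh1a1-dominant cells, against 0, 24.4 and 378 FPKM in Aldh1a3-dominant cells, a difference of 2.89. Lgmn had 0, 90.7 and 212 FPKM in Aldh1a1-dominant cells, against 0, 0 and 168 FPKM in Aldh1a3-dominant cells, a difference of 2.83. It was detected in 26 of 31 and 13 of 35 cells. Ctsa followed at 2.59, with all 31 Aldh1a1-dominant cells at 72.1 FPKM or more and 29 of 35 Aldh1a3-dominant cells at 1 FPKM or more.

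All 6 membrane proteins were above 0 in this comparison, with a median of 1.002, and Lamp1, Lamp2 and Cd63 were past the fold. The V-ATPase had a median of 0.79 and 4 of 14 genes past the fold: Atp6ap1 and Atp6ap2, the accessory proteins needed for pump assembly, Atp6v1a and Atp6v1e1. The upward share of all compared genes was 10.8%. Lowest of the 38 genes were Atp6v1c1 at -0.30, Manba at -0.19 and Atp6v1g1 at -0.18, none past the fold. With mean FPKM taken before the logarithm, 6 luminal and 2 V-ATPase genes were past the fold upward, against 9.89% of all compared genes.

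Wild-type Aldh1a1- and Aldh1a3-dominant cells (8 and 15) differed less in the luminal list, with a median of 0.16, 4 of 18 past the fold upward, against 18% of all compared genes, and 1 downward, against 17.6%. The upward share of luminal genes, 22.2%, is close to that of all genes, and the downward share, 5.56%, is below it. Lgmn was again high in Aldh1a1-dominant cells, with 7.04, 126 and 249 FPKM, against 0, 53.9 and 297 FPKM in Aldh1a3-dominant cells, a relative difference of 2.22. Ctsl had a difference of -0.99 and Gaa, acid alpha-glucosidase, of -1.23. Gaa was at 0.53, however, when cells were limited to 3000 to 5000 listed genes, which left 3 Aldh1a1- and 8 Aldh1a3-dominant cells. The membrane proteins had a median of 0.31 and the V-ATPase of 0.42. Atp6ap1 had the largest value, 2.64, with 17.6, 135 and 307 FPKM in Aldh1a1-dominant cells, against 0, 35.1 and 270.4 FPKM in Aldh1a3-dominant cells. Atp6v0b was past the fold upward at 1.96 and Atp6v0d1 downward at -1.29.

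**Figure D4:**
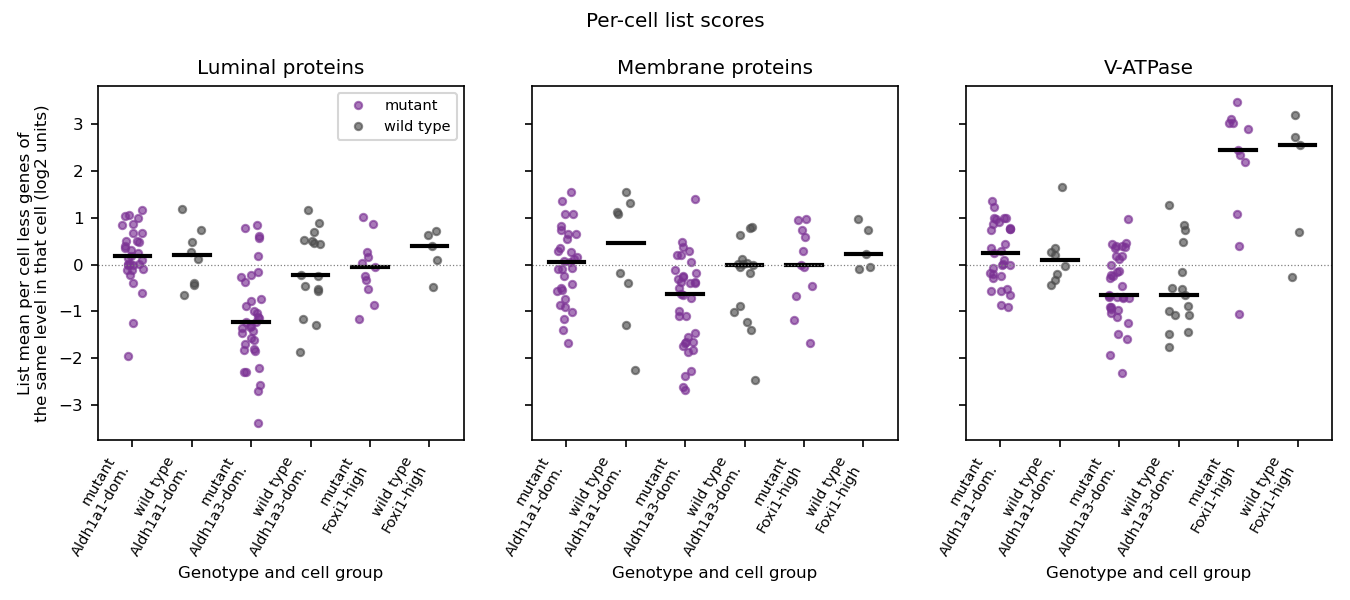
Per-cell scores for the luminal proteins, membrane proteins and V-ATPase: the mean log2(FPKM + 1) of the list less the mean of genes of the same level in that cell. Points are cells, bars are medians, and mutant groups stand left of wild-type groups. The luminal scores of mutant Aldh1a3-dominant cells have the lowest median of the plotted groups, -1.23, and the V-ATPase scores of Foxi1-high cells the highest, 2.46 in mutant and 2.56 in wild-type cells.

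The per-cell scores come from the same values and cells as the differences above and show the spread over cells. The luminal score was -3.40, -1.23 and 0.85 as lowest, median and highest in mutant Aldh1a3-dominant cells, against -1.87, -0.23 and 1.18 in wild-type Aldh1a3-dominant cells. In Aldh1a1-dominant cells it was -1.96, 0.19 and 1.17 in the mutant, against -0.65, 0.20 and 1.20 in the wild type. The ranges overlapped in both cases. The 9 mesenchymal-marked mutant cells lay lowest by median, at -2.54, -1.90 and -1.24, with the 1 wild-type cell of that kind too few to compare.

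Foxi1-high cells had much more of the ubiquitous V-ATPase than other sac epithelial cells, in both genotypes. In mutant cells (11 against 73) the median relative difference of the 14 genes was 2.21 and 11 were past the fold upward, against 15.7% of all compared genes, with 0 downward, against 12.6%. In wild-type cells (5 against 27) the median was 1.80 and 11 were past the fold upward, against 19.3% of all compared genes, with 0 downward, against 17.8%. The 11 genes were the same in both genotypes, which share no cells: Atp6v1a, Atp6v1b2, Atp6v1c1, Atp6v1d, Atp6v1e1 and Atp6v1h of the V1 sector, Atp6v0b, Atp6v0c and Atp6v0e of the V0 sector, and both accessory proteins. Atp6v1f, Atp6v1g1 and Atp6v0d1 did not reach the fold in either genotype. Aldh1a1 was at 1 FPKM or more in 9 of 11 mutant and 5 of 5 wild-type Foxi1-high cells, against 34 of 73 and 13 of 27 others. Per-cell V-ATPase scores had medians of 2.46 in Foxi1-high and 0.26 in Aldh1a1-dominant mutant cells, and 2.56 and 0.10 in the wild type. Mean log2(FPKM + 1) of Atp6ap1 was 6.88 and 6.16 in these mutant groups, and of Atp6v0e 8.84 and 8.36 in the wild-type ones. The part of Aldh1a1 in this result was not tested.

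Atp6v1h, a V1 subunit needed for ATP-driven pumping (ENSMUSG00000033793.12, chromosome 1, 5070018 to 5162529, plus strand), had 4.25, 182 and 387 FPKM in mutant Foxi1-high cells, against 0, 0.839 and 255 FPKM in other mutant sac epithelial cells, a relative difference of 4.12. In the wild type its values were 1.22, 85.7, 290.04, 388 and 662 FPKM in the 5 Foxi1-high cells, against 0, 42.9 and 274 FPKM as lowest, median and highest in the others, a difference of 2.37. Atp6v1e1 (ENSMUSG00000019210.10, chromosome 6, 120794305 to 120822793, minus strand) had 73.6, 391 and 1051 FPKM in mutant Foxi1-high cells, against 0, 57.6 and 348 FPKM in the others, a difference of 3.55. The Foxi1-high cells all held both genes, whereas 33 of 73 other mutant cells listed Atp6v1h at 0 and 21 listed Atp6v1e1 at 0.

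The wild-type Foxi1-high cells had 164, 242, 409.9, 580 and 1089 FPKM of Atp6v1e1, against 0, 6.08 and 237 FPKM in other wild-type sac epithelial cells. Its relative difference, 4.80, was the largest of any of the 38 genes in any comparison here, and 98.5% of cell pairs had the Foxi1-high cell higher. Atp6v0c reached 85.8, 1268 and 2046 FPKM in mutant Foxi1-high cells, against 0, 148 and 548 FPKM in the others, while Atp6v0b had 0, 844 and 2035 FPKM, against 0, 79.9 and 465.8 FPKM. Both V0 ring genes had medians above that of Cd63, 603 FPKM, in these cells.

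Foxi1-high cells were not uniform. Mutant V-ATPase scores were -1.06, 2.46 and 3.48 as lowest, median and highest, and the 5 wild-type scores were -0.27, 0.69, 2.56, 2.73 and 3.20. The low wild-type cell had 0.181 FPKM of Atp6v1a, 0 of Atp6v1d and 1.22 of Atp6v1h, so several subunits were low together in it, although it held 164 FPKM of Atp6v1e1. Of the 10 markers of mitochondria-rich cells, which include Foxi1 and 5 tissue-restricted subunits, 2 to 9 were at 10 FPKM or more per mutant Foxi1-high cell and 2 to 8 per wild-type one. In the 9 mutant and 3 wild-type cells with at least 4 of these markers, the V-ATPase medians were 2.80 and 2.96. The luminal median in those wild-type cells was -0.09, against 0.23 with all 5. The summed level of 12 mesenchymal markers had a median of 305 FPKM (0 to 1363) in mutant Foxi1-high cells, against 0 (0 to 145) in other mutant cells, and of 179.8 FPKM (5.06 to 1575) in wild-type Foxi1-high cells, against 0 (0 to 1145) in other wild-type cells. Of the 12, 7 in mutant and 8 in wild-type Foxi1-high cells were below 1 FPKM throughout, Pdgfra, Pdgfrb and Col3a1 among them in both. Those that reached 1 FPKM in a cell were Col1a1, Col1a2, Twist1, Dcn and Lum in the mutant. In the wild type they were Col1a1, Col1a2, Col5a1 and Dcn. Listed genes had medians of 5068 in mutant Foxi1-high cells, against 4340 in the others, and 5983 in wild-type Foxi1-high cells, against 5019. The part of these markers and of the listed genes in the result was not tested. Without the 2 mutant cells that carried a Y-linked transcript the V-ATPase median was 2.13 with 11 genes past the fold.

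**Figure D5:**
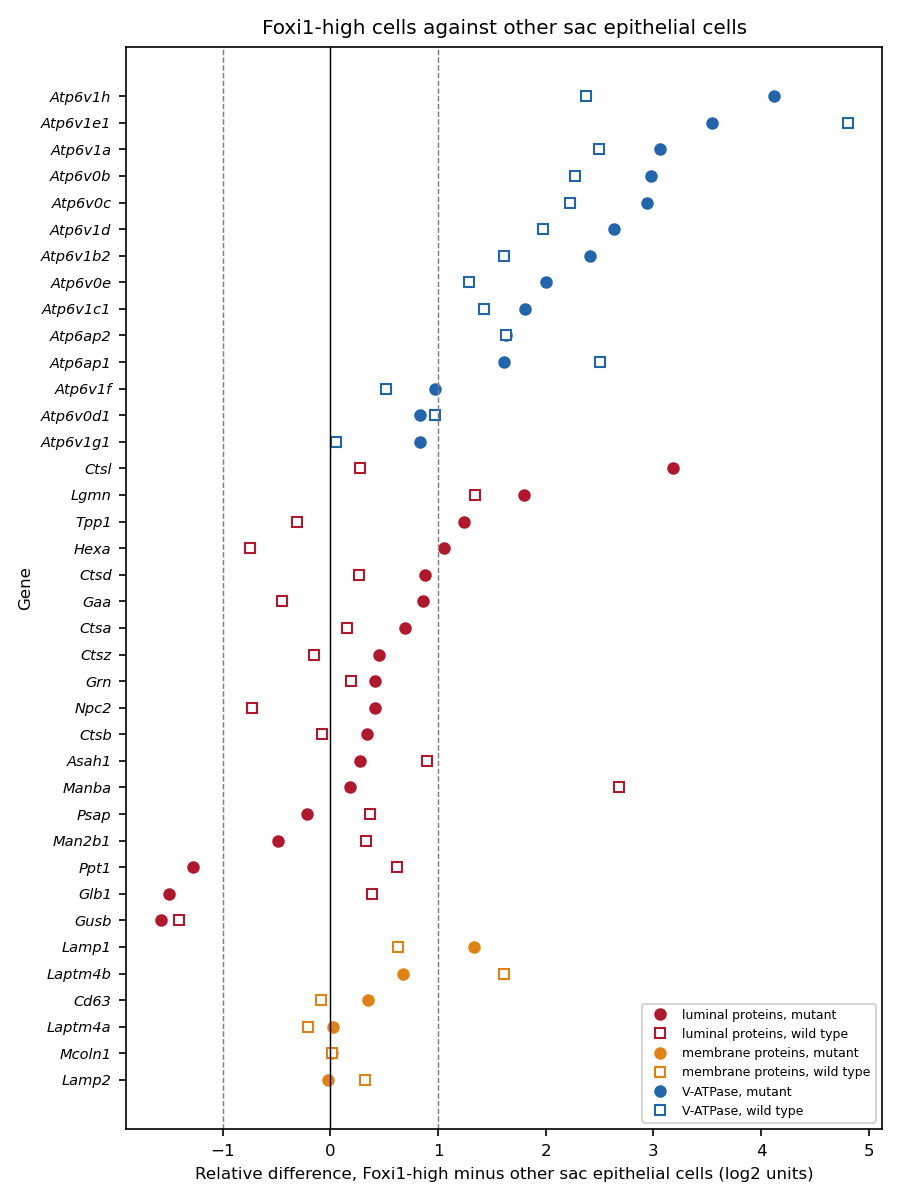
Relative difference between Foxi1-high and other sac epithelial cells (log2 units) of the 38 compared genes, filled circles in mutant and open squares in wild-type cells, coloured by class. Dashed lines mark a relative difference of 1 in either direction. The V-ATPase genes at the top lie to the right of 0 in both genotypes, up to 4.80, while the luminal and membrane genes lie on both sides of 0.

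The luminal and membrane proteins had medians much nearer to 0. The luminal median was 0.42 in mutant and 0.23 in wild-type Foxi1-high cells, and the membrane median was 0.19 in mutant and 0.17 in wild-type cells. The per-cell luminal score has its 0 at genes of the same level in the same cell. Its median was -0.05 in mutant Foxi1-high cells, against -0.22 in other mutant sac epithelial cells. Among wild-type cells it was 0.41 in Foxi1-high cells, against 0.13 in the others. In the mutant, 4 of 18 luminal genes (22.2%) were past the fold upward, against 15.7% of all compared genes. Downward there were 3 (16.7%), against 12.6%, so both shares were near those of all genes. Ctsl stood out with 240.3, 547 and 1416 FPKM in mutant Foxi1-high cells, against 0, 94.4 and 395 FPKM in the others, a relative difference of 3.18. In wild-type Foxi1-high cells it had 168.5, 181, 187, 503 and 1015 FPKM, against 0, 241 and 739.6 FPKM in the others, a difference of 0.28. All Foxi1-high cells of both genotypes held Ctsl at 168.5 FPKM or more.

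Lgmn was past the fold upward in Foxi1-high cells of both genotypes. Its mean log2(FPKM + 1) was 6.08 in Foxi1-high and 5.46 in Aldh1a1-dominant mutant cells, and 7.05 and 6.48 in the wild type. Manba was past the fold upward in the wild type at 2.68, against 0.18 in the mutant. It had 17.9, 21.5, 23.6, 27.7 and 68.1 FPKM in the 5 wild-type cells. That difference between the genotypes was not tested. Gusb, beta-glucuronidase, was lower in Foxi1-high cells, at -1.58 in the mutant and -1.40 in the wild type. Glb1 at -1.49 and Ppt1, palmitoyl-protein thioesterase, at -1.28 were lower in mutant Foxi1-high cells. In the wild type, Hexa at -0.75 and Npc2 at -0.73 were next lowest and did not pass the fold. Lamp1 was past the fold upward in the mutant and Laptm4b in the wild type.

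Among 10 other V-ATPase subunits are 5 tissue-restricted ones that serve here as markers of mitochondria-rich cells. Atp6v1b1, the B subunit form whose human counterpart is mutated in renal tubular acidosis with deafness, was at 1 FPKM or more in 8 of 11 mutant and 2 of 5 wild-type Foxi1-high cells and in 0 of 73 and 0 of 27 other sac epithelial cells, which allow shares of up to 4.11% and 11.1%. Atp6v0d2 was likewise at 0 FPKM in all other sac epithelial cells and had 0, 235 and 478 FPKM in mutant Foxi1-high cells. Its values in the 5 wild-type cells had a median of 65.7 FPKM. Atp6v1c2, Atp6v1g3 and Atp6v0a4 were detected in 8, 6 and 9 of 11 mutant Foxi1-high cells and in 3, 2 and 1 of 5 wild-type ones. In other sac epithelial cells Atp6v1c2 was detected in 2 of 73 mutant cells and 0 of 27 wild-type cells, and Atp6v1g3 and Atp6v0a4 in 0 of either genotype. These 5 genes were not compared by fold. The 2 subunits that were compared did not follow them. Tcirg1, another form of the large V0 subunit, was lower in Foxi1-high cells, at -1.21 in the mutant and -2.37 in the wild type, and Atp6v0e2 was at 1.05 in the mutant and -2.05 in the wild type.

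Other lysosomal genes were taken from a list of 33, of which Galns was not analysed here and 20 were compared. In Aldh1a3-dominant cells 10 of the 20 were past the fold downward in mutant cells and 0 upward, against 11.8% and 9.64% of all compared genes, with a median of -0.99. Among them were Fuca1, alpha-fucosidase, at -3.68, and Naglu, alpha-N-acetylglucosaminidase, at -2.66. In Aldh1a1-dominant cells 3 of the 20 were past the fold downward, a share near the 15.2% of all compared genes, and the median was -0.09. Between Aldh1a1- and Aldh1a3-dominant mutant cells, 9 were past the fold upward, against 10.8% of all compared genes, and 2 downward, near the 8.39% of all compared genes. Smpd1, acid sphingomyelinase, was highest at 3.14. Between the same groups of wild-type cells the median was -0.27, with 2 of the 20 past the fold upward and 4 downward. The shares of all compared genes there were 18% and 17.6%.

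Of 18 genes of lysosomal sorting and regulation, 12 were compared. In mutant cells 5 of the 12 were past the fold downward in Aldh1a3-dominant cells, against 11.8% of all compared genes, and also 5 in Aldh1a1-dominant cells, against 15.2%, with 0 upward in either. Gnptg, a subunit of the enzyme that tags lysosomal enzymes with mannose 6-phosphate, was lower in mutant cells in all sac epithelial cells at -2.55, in Aldh1a1-dominant cells at -3.80 and in Aldh1a3-dominant cells at -1.78. M6pr, a receptor for that tag, was higher in Foxi1-high cells, at 1.41 in the mutant and 2.04 in the wild type. Tfeb was detected in 18 of 73 mutant and 4 of 27 wild-type sac epithelial cells and Mitf in 1 and 0, too few to be compared. Tfe3 was detected in 13 mutant and 9 wild-type cells and was compared. With M6pr and Igf2r it was past the fold upward in wild-type Foxi1-high cells, 3 of 12 genes against 19.3% of all compared genes. In mutant Foxi1-high cells Tfe3 was not past the fold.

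Exons of 6 of the 42 genes (Ctsa, Ctsb, Ctsd, Ctsl, Hexa and Atp6v0b) share 10% or more of their bases with another annotated gene, and no strand setting is known, so their values are uncertain. Without them, 8 of 13 luminal genes were past the fold downward in mutant Aldh1a3-dominant cells, against 11.8% of all compared genes. Their median was -1.08. In Aldh1a1-dominant cells the luminal median between genotypes was -0.35 without them, against 0.08 with all 18 genes. Between wild-type Aldh1a1- and Aldh1a3-dominant cells it was 0.57, against 0.16, and in the mutant 1.48, against 1.54. In Foxi1-high cells of each genotype, 10 of 13 V-ATPase genes were past the fold upward. The shares of all compared genes there were 15.7% in the mutant and 19.3% in the wild type.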

How the data were processed

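The authors deposited 1 table of FPKM values per gene and cell, made from Smart-seq2 libraries, which copy full-length transcripts of a cell without molecular identifiers, per the labels' protocols. Cufflinks, HISAT2, HTSeq and SAMtools 0.1.18 are listed, with the build mm10, per the submitters' processing notes. No source used here gives the annotation release, strand setting or read filters. FPKM carries no read number, so depth is unknown. Intervals are exact Clopper-Pearson at 95%, and a count of 0 allows a share of 3 counts of the total. Both cover counting error only.

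Cell groups, bins and thresholds are those given with the results. Adding 1 FPKM before the logarithm makes differences of scarce genes look smaller. Genes were compared when at 1 FPKM in at least 25% of sac epithelial cells, averaged over the genotypes. All 126 cells were kept, no 2 held identical values, and no doublet caller was run because it needs counts. With 1 sample per genotype no test was made. Gene lists, members and the rule for named genes were chosen with earlier results of these data known. That rule names genes past the fold in all sac epithelial cells plus the 5 highest and 5 lowest genes there, and the 3 highest and 3 lowest in each other comparison. Other genes given with values were chosen after these were seen. The motif search used RefSeq promoter windows, and gene overlaps used GENCODE. The calculation was tested on simulated data. Alternatives changed the pseudocount, averaging, filter, scaling and cells included. Python 3.11.15, numpy 2.4.6, pandas 2.3.3 and scipy 1.17.1 were used.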

Additional observations from a re-analysis of the deposited data

Results flagged for a closer look

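Among 9 sets of per-cell scores in groups of 4 to 10 cells, 1 cell stood far from the others. The highest V-ATPase score among the 8 wild-type Aldh1a1-dominant cells was 1.66, against a group median of 0.10 and a lowest value of -0.44. Its distance to the next cell took up 0.619 of the whole range of the group. Chance gives about 1 such cell in 20 groups. That cell is among the 8 against which the mutant Aldh1a1-dominant cells were set.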

How the results depend on the processing

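The yardstick for a list median was the SD of the per-cell scores. It exceeds many of the medians, so a median could change sign and still count as held. Across the alternatives run, 419 list medians stayed within 1 SD of the per-cell scores, and 1 moved. That was the V-ATPase median in wild-type Foxi1-high cells, 2.96 when only cells with at least 4 mitochondria-rich markers were kept, an alternative chosen after seeing the data, against 1.80. Leaving out each of the 5 wild-type Foxi1-high cells gave 1.53 to 2.37. A reversal was counted only where the reported value was at least 1 in size. The reversed value was that of Gaa between wild-type Aldh1a1- and Aldh1a3-dominant cells. It was 0.53 in the 3 and 8 cells with 3000 to 5000 listed genes, against -1.23, and the cause was not tested. Sign changes of smaller list medians are given below. Of the counts and single genes, 1004 held and 99 moved.

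The luminal median between genotypes in Aldh1a3-dominant cells ranged from -1.74 (pseudocount of 0.1) to -0.71 (pseudocount of 10). Its count past the fold downward, 13, was 14 with a pseudocount of 0.1, 7 with 10 and 3 with the mean FPKM taken first. The share of all compared genes, 11.8% as reported, was 21.4%, 2.77% and 10.6% in these 3 settings. Over all sac epithelial cells the 3 luminal genes downward became 0 to 7, the 2 V-ATPase genes upward 0 to 3 and the 1 downward 0 to 4. Of all compared genes there, 0.8% were upward and 1.28% downward with a pseudocount of 10, and 14.3% and 15.5% with 0.1. In Aldh1a1-dominant cells the 1 luminal gene in each direction became 0 to 3, and the 4 V-ATPase genes downward 1 to 5. With pseudocounts of 10 and 0.1, the shares of all compared genes were 3.13% and 24.3% upward, and 3.7% and 25.3% downward. The 12 luminal genes higher in mutant Aldh1a1-dominant cells became 6 to 14, and the 4 V-ATPase genes 1 to 9. All compared genes had upward shares of 3.12% and 19.9% there with pseudocounts of 10 and 0.1. In the wild type the 4 luminal genes upward became 1 to 5, the 1 downward 0 to 4 and the 4 V-ATPase genes 3 to 7. There the shares of all compared genes were 5.4% and 27.5% upward, and 4.75% and 26.6% downward, with pseudocounts of 10 and 0.1. The V-ATPase median in mutant Foxi1-high cells ranged from 1.38 to 2.89, with 10 to 14 genes past the fold, and 9 to 12 in the wild type. With pseudocounts of 10 and 0.1, the upward shares of all compared genes were 4.98% and 25.3% in the mutant, and 6.05% and 28.3% in the wild type. The V-ATPase median between genotypes changed sign, to 0.02 in all sac epithelial cells and 0.00 in Aldh1a3-dominant cells with the mean FPKM taken first, and in Aldh1a1-dominant cells in 3 of 14 alternatives. The luminal median between wild-type Aldh1a1- and Aldh1a3-dominant cells was -0.31 in cells with 3000 to 5000 listed genes (3 and 8 cells). In that setting the membrane median of mutant Foxi1-high cells was -0.39 (5 against 50 cells). No wild-type Foxi1-high cell fell in that range, so that setting was not run for them. Their membrane median was -0.02 with median-ratio scaling, and their luminal median -0.09 in cells with at least 4 mitochondria-rich markers. Between genotypes in Aldh1a1-dominant cells, the luminal median changed sign in 1 of 14 alternatives. The membrane median and that of all members did so in 2 each. No paired analysis was possible because cells of different genotypes share no animal or number in the labels and no test was made.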
